A study of Mus musculus with 2 samples.

Results

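The mitochondrial respiratory chain subunits were examined in monocytic myeloid-derived suppressor cells (M-MDSCs) taken from tumours of mice on a normal-salt diet (NSD) or a high-salt diet (HSD). The set was chosen by gene symbol, and held the array's nuclear genes for NADH dehydrogenase (Nduf, without the Ndufaf assembly factors), succinate dehydrogenase (Sdh), the cytochrome bc1 complex (Uqcr and Cyc1), cytochrome c (Cycs), cytochrome c oxidase (Cox4i, Cox5 to Cox8) and ATP synthase (Atp5). This gave 87 of the 20653 genes that could be named on the array, of which 38 were in complex I, 4 in complex II, 9 in complex III, 18 in complex IV and 17 in complex V, with cytochrome c as the remaining gene. All mice were female and of the BALB/c strain (spelt BABL/c in the labels), had been starved for 1 day, and had received 1000000 cells of the mammary carcinoma line 4T1 under the skin. The mice on the NSD then had chow with 0.4% NaCl and tap water, and the mice on the HSD had chow with 4% NaCl and water with 1% NaCl, in both cases for 16 days. Cells were isolated from the tumours with a magnetic bead kit and mixed in equal numbers within a diet, so each diet was measured by 1 array of pooled RNA. With no second array for either diet, the spread between mice is unknown, the diets could not be tested against each other, and precision is set by how few arrays there are. The labels give no age, and the methods describe the study's mice as a few weeks old when obtained.

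The respiratory chain sits in the inner membrane of mitochondria. Complexes I and II take electrons from NADH and succinate and pass them through ubiquinone to complex III, cytochrome c carries them on to complex IV, and complex IV hands them to oxygen. Complexes I, III and IV pump protons as they do so, and complex V, the ATP synthase, lets the protons flow back and makes ATP. Most subunits are encoded in the nucleus and imported, and a few of the membrane core are encoded by mitochondrial DNA and are not among the genes described here. In myeloid cells the balance between this chain and glycolysis is known to shift with activation, and succinate dehydrogenase joins the chain to the tricarboxylic acid (TCA) cycle.

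A gene was represented by its brightest probe, that with the highest mean log2 processed signal. The 75th percentile of each array's log2 signal was subtracted, and the scaled value for NSD was then taken from that for HSD, which gives the log2 ratio (the log2 fold change) used throughout (negative when the signal was lower under HSD). These percentiles were 252.2 intensity units for NSD and 232.9 for HSD. Signals in intensity units, and sums of them, are given here and below before this scaling. A gene that is level after scaling thus has the lower signal under HSD. No spot was saturated. The labelled cell type was checked by marker genes. All 7 monocytic markers were well above background on both arrays (1 higher and 2 lower by 1.5-fold or more). The higher one was Cd14 (log2 ratio 0.82), and the lower ones were Ccr2 (-0.78) and Fcgr1 (-3.68, from 304.7 and 21.9 units). The summed signal of the monocytic markers was 102600 intensity units under NSD and 96900 under HSD. It was mostly that of Ly6c1 and Itgam, with log2 ratios of 0.018 and 0.090. The median log2 ratio of these markers, after scaling, was 0.018. But all 8 neutrophil markers were well above background too, granule genes such as Camp, Ltf and Ngp included (1 lower by 1.5-fold or more). Their sums were 253600 and 244900, and their median log2 ratio was 0.074. Transcripts known from neutrophil granules were thus present beside those of the labelled cells. Of 7 macrophage markers 5 were lower under HSD by 1.5-fold or more, and the sum over the 7 was 14190 under NSD and 8678 under HSD. Of 7 epithelial markers 3 were higher by 1.5-fold or more (Epcam, Krt8 and Krt18, with log2 ratios of 0.71, 0.61 and 0.76). None was lower by that much, but Krt5, Cdh1 and Krt7 had -0.54, -0.43 and -0.28, and Krt14 had 0.069. All 7 had low signals, at most 46.6 intensity units (Krt5 under NSD), and the sum over them was 171.4 under NSD and 155.5 under HSD. Of 7 T and NK cell markers only Cd3e was past 1.5-fold, with 114.7 and 49.9 units (log2 ratio -1.09). Cd3d and Lck had 0.43 and 0.42, Nkg7 0.059 and Klrb1c at least 0.50, while Cd3g and Cd2 had -0.35 and -0.095. The median of these markers was 0.059, and the sums were 3223 and 3579. The sums for 6 erythroid markers, 5 of them above background on both arrays, were 28170 and 24800, with Hbb-bs lower at -0.66. The part of these cell types in the results below was not tested, and in pooled RNA fewer cells of a type and less RNA per cell cannot be told apart.

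Of the 87 genes, 84 had a probe well above background on both arrays, and Cox8b, Cox8c and Ndufa4l2 were dim on both. As a group the subunits were slightly lower under HSD. Their median log2 ratio was -0.16, with a middle range (25th to 75th percentile) of -0.35 to 0.076. Over all 16312 named genes with a usable probe the median was 0.045, with a middle range of -0.25 to 0.31. Negative log2 ratios were found for 59 of the 84 subunits (70.2%) and for 45.8% of all genes. Only Cox7b2 was at least 1.5-fold higher, 1.19% of the set where 9.86% of all genes were, and Ndufa9, Ndufc2 and Atp5g3 were at least 1.5-fold lower, 3.57% of the set where 10.3% of all genes were. Over all named genes 1608 were higher and 1682 lower by this measure, 1244 and 1991 with cyclic loess, and 619 and 655 with normexp, a background correction that shrinks differences at low signal. How the subunits compared with all genes depended on this choice. With normexp 4 of the 84 subunits were lower by 1.5-fold or more where 4.07% of all genes were, and with cyclic loess 8 of the 84 were where 12.2% of all genes were, so the share of the set was closer to that of all genes under these settings. Among genes above background on both arrays 8.84% were higher and 9.42% lower. The subunits were also bright: the 25th percentile of their NSD signal was 1419 intensity units, where the 75th percentile of all probes was 252.2. The part of brightness in these shares was not tested. Among 289 probes printed in several spots, log2 signals of spots of the same probe had a median SD of 0.082, which for single spots on 2 arrays gives an SD of 0.12 for a difference. This covers the measurement within an array only. In 86 of the 87 genes the probe was a single spot.

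**Figure D1:**
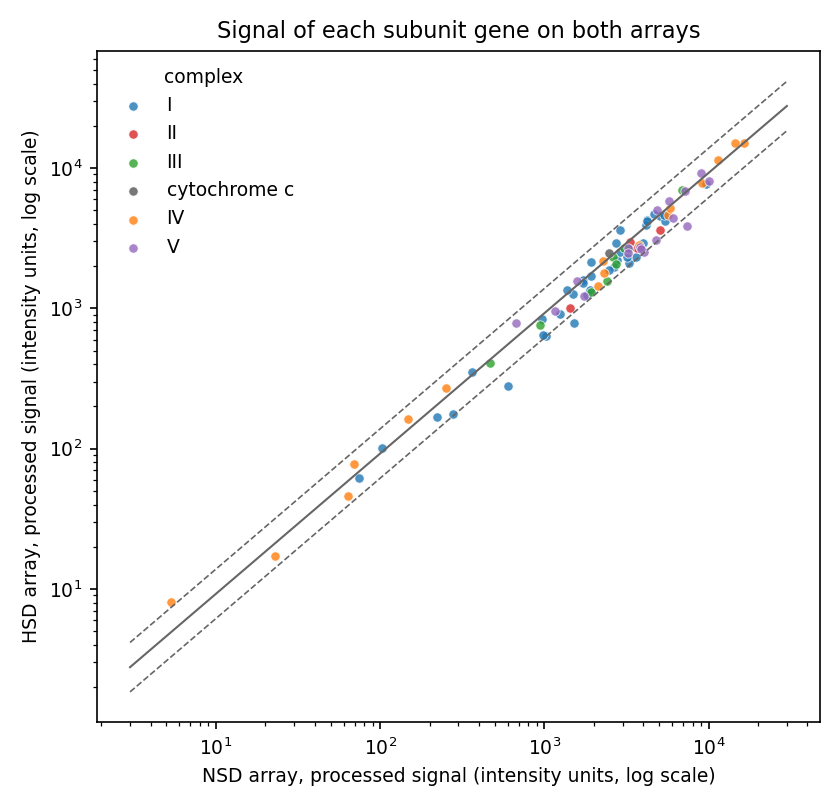
Processed signal of the 84 measured subunit genes on the NSD array (x axis) and the HSD array (y axis), in intensity units on log scales, coloured by complex. The solid line marks equal signal after scaling on the 75th percentile and the dashed lines 1.5-fold; Cox7b2, at 5.34 and 8.10 units, is the point beyond the upper dashed line, and Ndufa9, Ndufc2 and Atp5g3 lie beyond the lower one.

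The complexes differed in how far they lay below the rest of the genes, although their ranges overlapped. Complex II had the lowest median log2 ratio, -0.35, and complex IV the one nearest to 0, -0.027, which was 0.0050 with normexp and 0.028 without a filter on dim probes. Complexes I, III and V lay between them with medians of -0.15, -0.19 and -0.19. Negative values were found for 4 of 4 genes of complex II, 8 of 9 of complex III, 27 of 37 of complex I, 11 of 17 of complex V and 9 of 16 of complex IV. Under the 12 ways of processing that were compared, complex II had the lowest median and complex IV the highest each time. With a few genes a complex, and 1 array per diet, these medians are a description and no test of a difference between complexes.

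**Figure D2:**
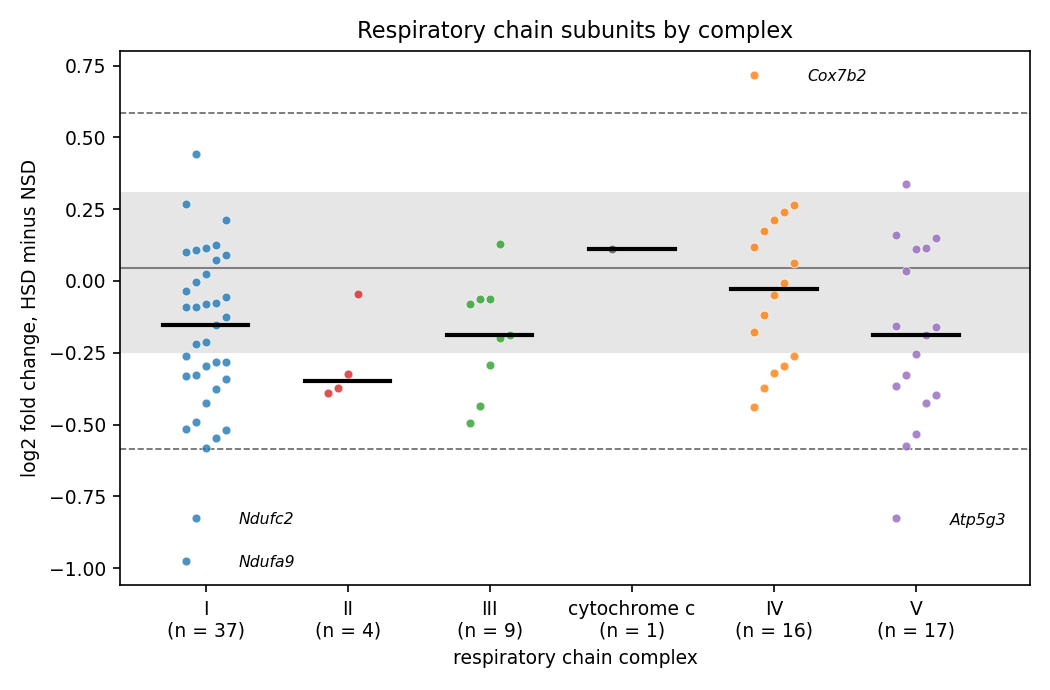
Log2 fold change (HSD minus NSD, y axis) of the brightest probe of each measured subunit gene, by complex (x axis), 1 point per gene. Black bars are medians, the grey line and band are the median (0.045) and middle range of all 16312 usable genes, and dashed lines mark 1.5-fold; all 4 points of complex II and 8 of the 9 of complex III lie below the grey line, and the points of complex IV lie on both sides of it.

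Complex I, NADH dehydrogenase, held both the lowest value of the set and 1 of the higher ones. Ndufa9, an accessory subunit at the junction of the peripheral and the membrane arm, had a signal of 600.1 intensity units under NSD and 281.9 under HSD, a log2 ratio of -0.98, or 1.97-fold lower. Ndufc2, a small subunit of the membrane arm, had signals of 1508 and 786.4, a log2 ratio of -0.83. Both were past 1.5-fold under all 12 ways of processing. Just short of 1.5-fold lay Ndufa5, with 1023 and 632.3 units (log2 ratio -0.58, or 1.495-fold lower). Ndufs8 had 277.9 and 175.6 units (log2 ratio -0.55), Ndufa8 had 3291 and 2119 (-0.52), Ndufb8 had 3616 and 2334 (-0.52) and Ndufb3 had 986.6 and 648.3 (-0.49). Ndufs8 carries iron-sulfur clusters of the electron path, and the other genes named here are accessory subunits.

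The 7 nuclear core subunits, which carry the cofactors of electron transfer or bind ubiquinone and are conserved from bacteria, had values of both signs. Ndufs7, which holds the last iron-sulfur cluster before ubiquinone, had the highest value of complex I, with signals of 2874 under NSD and 3609 under HSD (log2 ratio 0.44). Ndufs1, the largest subunit of the peripheral arm, was nearly level with signals of 1366 and 1360 (log2 ratio 0.11). Ndufv1, which binds NADH and flavin, had signals of 1908 and 1357 (log2 ratio -0.38). Ndufs3, a subunit of the peripheral arm, had 2639 and 1987 (log2 ratio -0.30), and Ndufv2 had a log2 ratio of -0.081. The median of the 7 core genes was -0.28, with 5 of 7 negative, and that of the 29 accessory genes was -0.13, with 21 of 29 negative. Ndufa4, named as a complex I gene but now placed in complex IV, had signals of 2763 and 2204 (log2 ratio -0.21), and counting it there changed the median of complex IV to -0.049.

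Complex II, succinate dehydrogenase, is encoded by 4 nuclear genes and no mitochondrial ones, and all 4 had lower signals under HSD. Sdha, the flavoprotein that oxidises succinate, had 1436 intensity units under NSD and 1013 under HSD (log2 ratio -0.39). Sdhb, the iron-sulfur subunit, had 5060 and 3608 (log2 ratio -0.37). The membrane anchors were less alike. Sdhc had 3648 and 2690 units (log2 ratio -0.33), and Sdhd had 3307 and 2961 (log2 ratio -0.045). With normexp, which was run on median signals and not on the processed signal, Sdhd had -0.37, so its small value depended on the processing. Which step moved it was not tested. The dimmer probes of Sdhb and Sdhc gave smaller differences in the same direction, -0.22 and -0.15, and with the median over a gene's probes the median of the complex was -0.27. None of the 4 genes reached 1.5-fold.

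Complex III, the cytochrome bc1 complex, passes electrons from ubiquinol to cytochrome c. Its lowest gene was Uqcrc2, a core protein and the only gene of the set with repeated spots. Its 10 spots gave a mean of 2406 intensity units under NSD and 1576 under HSD, with SDs between spots of 0.035 and 0.071 on the log2 scale. The log2 ratio was -0.50 with a standard error from spots of 0.025, so the difference was larger than the spread of the spots, while the spread between mice is unknown. The partner core protein Uqcrc1 had 469.3 and 409.7 units (log2 ratio -0.082). Uqcrfs1, the Rieske iron-sulfur protein, had 3069 and 2715 (log2 ratio -0.063), and Cyc1, cytochrome c1, had 935.6 and 758.3 (log2 ratio -0.19). Uqcrh, the hinge protein, was the only gene of the complex with a positive value, 0.13, from signals of 6889 and 6951. Cycs, the mobile carrier between complexes III and IV, had 2490 and 2486 units, a log2 ratio of 0.11.

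Complex IV, cytochrome c oxidase, lay closest to the other genes. Cox4i1, a regulatory subunit found in most tissues, had signals of 9125 under NSD and 7765 under HSD (log2 ratio -0.12). Cox5a had 5657 and 4621 (log2 ratio -0.18) and Cox5b had -0.049. The lowest value was that of Cox7b, with 2115 and 1442 units and a log2 ratio of -0.44. Several subunits of this complex exist as alternative genes for different tissues. The general forms Cox6a1, Cox7a2 and Cox8a had log2 ratios of -0.0058, 0.062 and 0.12. Cox6b1 had signals of 252.0 and 269.7 (log2 ratio 0.21). Cox7a2l, a relative of Cox7a2 known for joining complexes III and IV into supercomplexes, had 14490 and 15100 units (log2 ratio 0.17), and its 3 probes were all positive, between 0.17 and 0.40.

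Tissue-restricted forms were measured too. Cox4i2, the form linked to lung and to low oxygen, had signals of 148.4 and 162.0 (log2 ratio 0.24). The muscle forms Cox6a2 and Cox7a1 had 22.9 and 17.2 units (log2 ratio -0.30) and 64.1 and 45.7 units (log2 ratio -0.37), and Cox8b, also a muscle form, was dim on both arrays. Of 12 skeletal muscle markers, 7 were dim on both arrays, among them Ckm, Myh1 and Mb, while Acta1 had 37.4 and 167.2 units (log2 ratio 2.28). The sum over the 12, 1177 and 1178, was mostly that of Tnni2, with 1037 and 924.5 units. Of the forms known from testis, Cox6b2 had 69.8 and 77.5 units (log2 ratio 0.26), Cox8c was dim on both arrays, and Cox7b2 had the highest value of the whole set, 0.72, from signals of only 5.34 and 8.10. The lowest signal called well above background was 4.61 intensity units for NSD, and the value for Cox7b2 was 0.13 with the normexp background correction. The other dim forms moved with it too: Cox4i2 had 0.12, Cox6a2 0.0057, Cox7a1 -0.24 and Cox6b2 0.061. Without the tissue-restricted genes the median of complex IV was -0.049. Ndufa4l2, a relative of Ndufa4 induced by low oxygen, was dim on both arrays.

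In complex V, the ATP synthase, the membrane rotor, the c-ring, is built of copies of a single mature protein made from 3 genes, Atp5g1, Atp5g2 and Atp5g3, which differ in the leader peptide that is cut off on import. All 3 were lower under HSD. Atp5g3 had 7395 and 3851 intensity units under NSD and HSD (log2 ratio -0.83, or 1.77-fold lower), Atp5g2 had 4781 and 3049 (log2 ratio -0.53), and Atp5g1 had 1753 and 1228 (log2 ratio -0.40). The second probe of Atp5g2 gave -0.44. The catalytic head was mixed. Atp5a1, the alpha subunit, had 4043 and 2509 units (log2 ratio -0.57), just short of 1.5-fold, and Atp5b, the catalytic beta subunit, had 9993 and 8106 (log2 ratio -0.19). Atp5d, the delta subunit of the central stalk, was the highest of the complex with 674.4 and 788.2 units (log2 ratio 0.34), and Atp5e, its small partner, had 0.11. The 9 remaining subunits of the membrane part and the stalks lay between -0.42 for Atp5k and 0.16 for Atp5pb, with 5 of 9 negative and a median of -0.16.

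The c-ring genes, whose values lay on the same side although each has a promoter of its own, and Ndufa9 and Cycs, the lowest gene and a level one, are shown by the 250 bases before their annotated start. The sequences are those of RefSeq on GRCm38.p6, 5′ to 3′ on the strand of the gene, and capitals mark matches to the letters GCGCATGC of the NRF1 motif on either strand. NRF1 is a nuclear factor known for binding at respiratory chain genes.
Atp5g1 (chr11:96075632-96075881, minus strand): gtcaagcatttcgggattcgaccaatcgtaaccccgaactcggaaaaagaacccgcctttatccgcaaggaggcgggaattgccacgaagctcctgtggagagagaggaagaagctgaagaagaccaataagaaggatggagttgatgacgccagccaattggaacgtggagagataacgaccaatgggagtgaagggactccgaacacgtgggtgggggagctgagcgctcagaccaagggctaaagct
Atp5g2 (chr15:102671048-102671297, minus strand): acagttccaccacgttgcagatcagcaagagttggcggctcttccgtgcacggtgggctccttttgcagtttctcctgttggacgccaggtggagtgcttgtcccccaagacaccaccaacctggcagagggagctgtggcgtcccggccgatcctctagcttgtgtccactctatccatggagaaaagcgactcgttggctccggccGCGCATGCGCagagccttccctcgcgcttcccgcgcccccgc
Atp5g3 (chr2:73911327-73911576, minus strand): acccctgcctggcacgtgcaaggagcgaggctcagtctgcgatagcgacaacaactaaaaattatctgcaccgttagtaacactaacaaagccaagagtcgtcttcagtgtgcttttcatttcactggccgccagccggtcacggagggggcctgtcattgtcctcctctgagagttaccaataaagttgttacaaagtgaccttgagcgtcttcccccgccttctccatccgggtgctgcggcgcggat
Ndufa9 (chr6:126849145-126849394, minus strand): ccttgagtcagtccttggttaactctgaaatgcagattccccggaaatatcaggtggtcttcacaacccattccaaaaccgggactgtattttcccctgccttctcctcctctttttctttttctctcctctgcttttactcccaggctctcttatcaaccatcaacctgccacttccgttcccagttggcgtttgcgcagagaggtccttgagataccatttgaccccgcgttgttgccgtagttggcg
Cycs (chr6:50566570-50566819, minus strand): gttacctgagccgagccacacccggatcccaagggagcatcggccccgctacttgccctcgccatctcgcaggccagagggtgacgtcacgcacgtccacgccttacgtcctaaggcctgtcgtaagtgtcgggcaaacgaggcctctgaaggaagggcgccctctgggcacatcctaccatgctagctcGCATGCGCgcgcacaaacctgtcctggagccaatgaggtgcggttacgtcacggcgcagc

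In these windows Atp5g2 holds the letters on both strands, in overlapping matches that start 42 and 40 bases before the annotated start, and Cycs holds a match 60 bases before it. Of the 87 genes, 70 had a promoter window in the table. The full windows, of 250 bases before and 50 after the start, were searched on both strands for GCGCATGC (NRF1), CCGGAAG (the ETS motif, bound by GABPA) and AAGATGGC (YY1), and no matches of different motifs overlapped in the windows of the set. NRF1 letters stood in 14.7% of the 75 windows of the set and in 2.71% of all 32851 windows, ETS letters in 22.7% and 8.86%, and YY1 letters in 13.3% and 2.75%. For each motif the genes with the letters had the median nearer to 0. Measured genes with NRF1 letters had a median log2 ratio of -0.082 (11 genes) and those without them -0.14 (58 genes). With and without ETS letters the medians were -0.0049 (17 genes) and -0.16 (52 genes), and with and without YY1 letters -0.074 (10 genes) and -0.15 (59 genes). A match is a description of the sequence and says nothing of binding.

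Several probes of a gene gave a second reading of the same transcript pool. For 23 genes both arrays measured more than 1 probe above background, and in 18 of these the probes had the same sign. The closest were Uqcrq, whose probes differed by 0.0020 on the log2 scale, Uqcrh (0.012) and Atp5pb (0.020). The probes disagreed most for Ndufb11, where the bright probe had -0.035 and a probe at 9.49 and 15.9 intensity units had 0.86. For Ndufa5 the bright probe had -0.58 and the other, with signals of 187.8 and 194.5, had 0.17. For Atp5c1, the gamma subunit of the ATP synthase, probes of like brightness had -0.16, from 3240 and 2687 units, and -0.84, from 3001 and 1546 units, so the difference for this gene depended on the probe. Cox7c, Uqcr10 and Atp5l also had probes of both signs. Ndufa9, Ndufc2, Atp5g3 and Cox7b2 had 1 probe each. RefSeq lists pseudogenes for several of the genes, and whether their transcripts reached these probes was not tested.

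**Figure D3:**
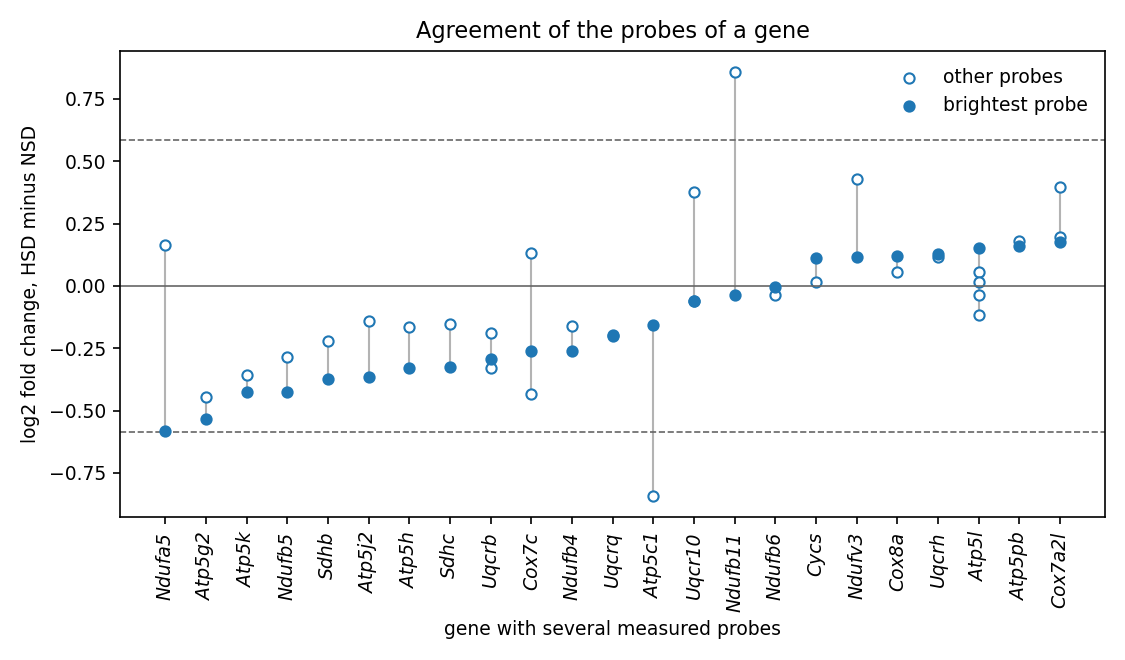
Log2 fold change (HSD minus NSD, y axis) of every probe well above background on both arrays, for the 23 subunit genes with more than 1 such probe (x axis, ordered by the log2 fold change of the brightest probe). Filled points are the brightest probe, open points the others, and dashed lines mark 1.5-fold; the probes lie close together for most genes and far apart for Ndufa5, Atp5c1 and Ndufb11.

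Genes around the chain were described with 4 further lists. Of 47 usable assembly factors, proteins that help to build the complexes and are not part of them, 1 was higher and 4 were lower by 1.5-fold or more, where 9.86% and 10.3% of all genes were, and the median log2 ratio was -0.11. Timmdc1, an assembly factor for the membrane arm of complex I, had 565.4 and 293.5 intensity units under NSD and HSD (log2 ratio -0.83), and its other probe, at 7.38 and 8.16 units, had 0.26. Ndufaf6, another complex I factor, had a log2 ratio of -0.66, Uqcc1, for complex III, -0.64 and Cox18, for complex IV, -0.62. Higd2a, a factor for complex IV and supercomplexes, had 1421 and 2014 units (log2 ratio 0.62). Each of the 5 was short of 1.5-fold under some other processing. With normexp Ndufaf6 had -0.38, Uqcc1 -0.19 and Cox18 -0.48, with the median over its probes Timmdc1 had -0.29, and with cyclic loess Higd2a had 0.53. The probes of Coa8 and Cox16 disagreed. Coa8 had 0.0081 by its brightest probe and -2.97 by the other, from 33620 and 3963 units. Cox16 had -0.36 by its brightest probe and 0.77 by the other, from 192.9 and 304.5 units. Whether these genes counted as past 1.5-fold thus depended on the probe.

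Pyruvate entry and the TCA cycle feed the chain with NADH and succinate. Of the 27 genes listed for them 8 lay past 1.5-fold, 4 in each direction, where 9.86% of all genes were higher and 10.3% lower, and the median was -0.13. Among them were the kinases and phosphatases that switch pyruvate dehydrogenase off and on. The kinase Pdk4 had 6.46 intensity units under NSD and 59.4 under HSD (log2 ratio 3.32), Pdk1 had 16.2 and 24.8 (log2 ratio 0.73), and Pdk2 had 16.9 and 6.72 (log2 ratio -1.22). These signals were low, and with the normexp correction the values were 0.95, 0.26 and -0.10. Pdk3, the brightest of the kinases listed, had 219.8 and 301.8 units (log2 ratio 0.57), just short of 1.5-fold. The phosphatase Pdp1 was lower by all 3 of its probes, with log2 ratios of -1.38, -1.31 and -1.12, the first from 143.8 and 51.1 units. Mpc2, part of the mitochondrial pyruvate carrier, had 2768 and 4683 units (log2 ratio 0.87). Pcx, pyruvate carboxylase, had 66.9 and 115.3 (log2 ratio 0.90), and Pdhx, a structural part of pyruvate dehydrogenase, had 80.2 and 48.1 (log2 ratio -0.62). With normexp these values were 0.40 and -0.33, short of 1.5-fold. Idh2, the NADP-dependent isocitrate dehydrogenase of mitochondria, had 1393 and 530.1 (log2 ratio -1.28). Cs, citrate synthase, had 5604 and 5535 (log2 ratio 0.097) and Mdh2, malate dehydrogenase, -0.13.

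Of 21 genes of mitochondrial biogenesis and DNA maintenance, 2 were higher and 2 lower by 1.5-fold or more, near the 9.86% and 10.3% of all genes, and the median was -0.092. Gabpb1, the partner of the ETS factor GABPA, had 728.9 and 1354 intensity units (log2 ratio 1.01), with 0.36 for its other probe at 24.3 and 28.8 units. Gabpa itself had -0.012 by its brightest probe and 0.49 by its other probe, at 176.4 and 228.9 units, so its value depended on the probe. Nrf1, the factor whose letters were searched above, had 737.6 and 820.5 units (log2 ratio 0.27). The DNA polymerase Polg had log2 ratios of 0.81 and 0.58 by its probes, the methyltransferase Tfb1m -0.78 and the elongation factor Tefm -0.65, the latter from 25.5 and 15.0 units. With normexp Tfb1m had -0.31 and Tefm -0.12, short of 1.5-fold. The coactivators Ppargc1a, with 22.6 and 15.9 units, and Ppargc1b, with 52.7 and 40.5, had -0.40 and -0.27. Tfam, which packages mitochondrial DNA, had -0.19. There were 18 usable genes for inner membrane carriers, outer membrane channels and uncoupling proteins. Among them Vdac1, a channel of the outer membrane, had 1511 and 2814 units (log2 ratio 1.01). Ucp1, at 8.57 units under NSD and dim under HSD, was at least 1.80-fold lower, with a log2 ratio of -0.093 with normexp. These were the only genes of the list past 1.5-fold, where 9.86% of all genes were higher and 10.3% lower. Vdac2, a brighter channel gene, was nearly level with 11540 and 11020 units (log2 ratio 0.048), and Vdac3 had 1711 and 1965 (log2 ratio 0.31). The median of the list was -0.054. Of 7 adipocyte markers, which include Ucp1, Cidea and Lep were dim on both arrays. Their summed signal of 573.3 under NSD and 114.1 under HSD was mostly that of Fabp4, with 543.5 and 69.6 units, while Adipoq was dim under NSD and had 29.4 units under HSD, a log2 ratio of at least 2.79. The part of these markers in the value of Ucp1 was not tested. The ADP/ATP carriers Slc25a4 and Slc25a5 had log2 ratios of -0.35 and -0.034, and Atpif1, the inhibitor of the ATP synthase, had -0.14.

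**Figure D4:**
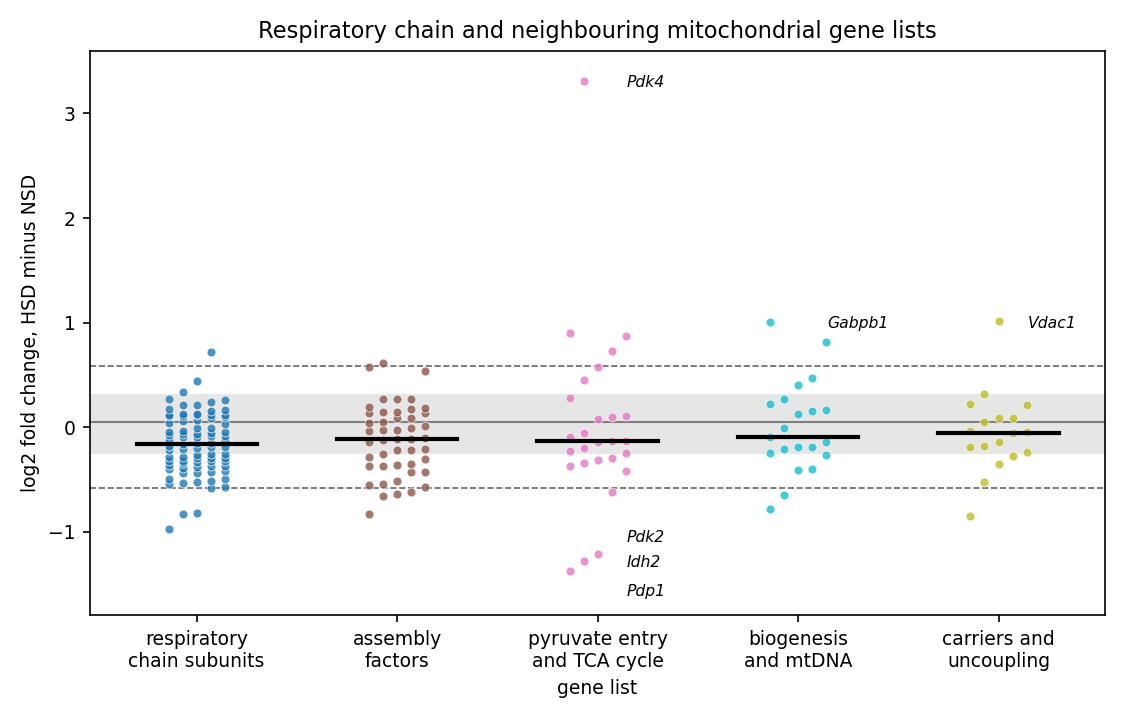
Log2 fold change (HSD minus NSD, y axis) of the usable genes of the respiratory chain and of 4 neighbouring lists (x axis), 1 point per gene, with black bars for medians, the grey band for the middle range of all 16312 usable genes and dashed lines at 1.5-fold. The subunits lie between -0.98 and 0.72, and the pyruvate entry and TCA cycle list spreads from Pdp1 at -1.38 to Pdk4 at 3.32; the value of Ucp1, the lowest of the last list, is a bound.

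The size of the group's displacement depended little on the processing. The median of the 84 genes was between -0.24 and -0.15 under the 11 other ways of processing, and the median of all named genes moved with it, between -0.024 and 0.078. The difference between these medians was -0.20 as reported and lay between -0.24 and -0.20. The number of genes past 1.5-fold did depend on it. Of the genes at least 1.5-fold lower, Ndufa9, Ndufc2 and Atp5g3 were so under all 12 ways, while Atp5a1, Atp5g2 and Ndufa5 were under 4, Ndufa8 and Ndufb8 under 3 and Ndufs8 under 1. Cox7b2 was at least 1.5-fold higher under 10 of them, and not with normexp or cyclic loess.

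**Figure D5:**
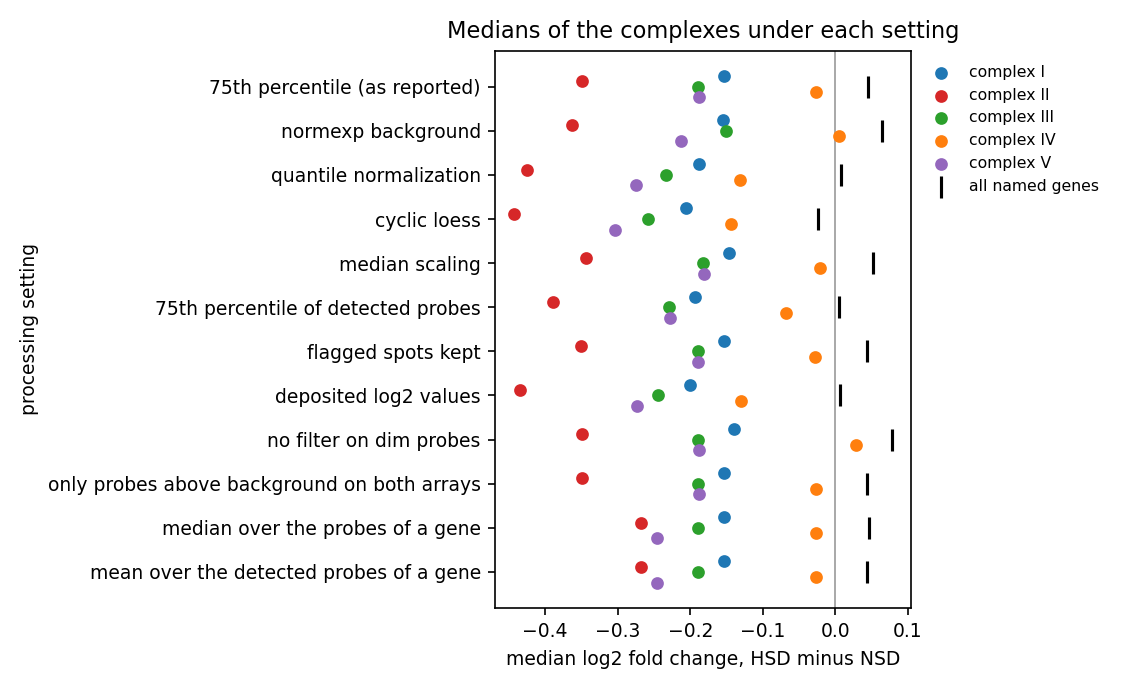
Median log2 fold change (HSD minus NSD, x axis) of complexes I to V and of all named genes under each of 12 ways of processing (y axis). Complex II has the lowest and complex IV the highest median of the complexes in every row, and all 5 lie to the left of the bar for all named genes; complex IV is above 0 with normexp (0.0050) and without a filter on dim probes (0.028).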

How the data were processed

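Each diet's pooled RNA was labelled with Cy3 and hybridised to 1 Agilent mouse gene expression microarray. The authors deposited scanner output, whose processed signal is an intensity made with Feature Extraction 11.0.1.1 (background subtracted, detrended within the array, not normalized between arrays). The authors also deposited normalized log2 values made with GeneSpring, whose method is not given in the sources used here; they served as an alternative.

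Control and outlier spots were left out, log2 spots of a probe averaged and each array's 75th percentile subtracted. A probe was well above background when at least 50% of its spots were. With 1 array per diet no test was run: a gene counted as higher or lower at 1.5-fold. A gene dim on 1 array had a bound. Transcript identifiers, without versions, named 27223 of 39413 probes through RefSeq on GRCm38.p6.

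Members and lists were chosen with earlier results of these data known. The promoter motifs, the core and accessory groups and the c-ring group were set after the values had been seen. Named genes were those past 1.5-fold, the highest and lowest of each complex, core subunits and isoform families, and others past 1.5-fold in the further lists (1 core subunit is not reported here); other members and genes of those lists were added as examples after their values were seen. In the list of assembly factors the prefix Coa was taken only before a digit. Alternatives were normexp (offset 50, on median signals), other scalings, filters and probe rules. Counting was checked on simulated data. Python 3.11.15, R 4.3.3 and limma 3.58.1 were used.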

Additional observations from a re-analysis of the deposited data

How the results depend on the processing

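No paired analysis was possible because each diet has 1 array, and for the same reason no array could be left out. With cyclic loess the median of complex IV was -0.14 and that of complex V -0.30, further from 0 than reported by more than the noise of single spots. That noise is only a yardstick of size here, because the same spots were processed again. The median of all named genes moved down too, from 0.045 to -0.024 with cyclic loess. The count of subunits at least 1.5-fold higher, 1 as reported, was 0 with normexp, with cyclic loess and at a 2-fold threshold, and 2 without a filter on dim probes, where Cox8c, dim on both arrays, was added. The count at least 1.5-fold lower, 3 as reported, was 8 with quantile normalization (11.3% of all genes), cyclic loess (12.2%) and the deposited log2 values (11%), 6 with the 75th percentile of detected probes (11.5%), 4 with normexp (4.07%), and 0 at a 2-fold threshold. The share of the 84 subunits was thus closer to that of all genes under those settings with 8 or 4 of them than as reported (10.3% of all genes). Scaling moved the median of all named genes by less than 0.1 on the log2 scale. Of 385 values of the 35 named subunits under the 11 alternatives, 370 stayed within the noise of single spots of the reported value, 15 moved by more, 9 of them with normexp, and none of those past 1.5-fold changed sign. Of 207 values of the 19 named genes of the other lists, 184 stayed within it and 23 moved. The causes of these shifts were not tested. Signals near the detection limit, as for Cox7b2, Pdk4 and Ucp1, limit what can be read from their folds.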
